A study of Mus musculus with 12 samples.

Results

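The enteric glia genes described here are Gfap, S100b, Sox10, Foxd3, Cdh19 and Gfra3, 6 genes chosen by their symbols from the 23420 rows of a table of RNA-seq counts. All 6 had a row, and all 6 passed the filter on low counts that left 15369 genes for testing. The RNA came from bulk pylorus, the muscular outlet of the stomach. The wild-type animals were C57BL/6 mice, and the transgenic animals were CEA424-SV40 T Ag mice on the same strain, in which a carcinoembryonic antigen promoter drives the SV40 T antigen. Both genotypes were taken at an age of 60 days (D60) or 80 days (D80), giving 4 groups of 3 libraries, 12 libraries in all, and no treatment is named. The promoter is an epithelial one, and whole tissue rather than glia was sequenced. The labels do not say that libraries came from separate animals, so p-values measure the spread between libraries, which may be technical.

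Enteric glia are the neural-crest-derived partner cells of the nerves in the gut wall, where they surround neurons in the plexuses between the muscle layers and follow nerve fibres into the mucosa. The transcription factor Sox10 is needed for glia to form from crest progenitors and stays on in mature glia, while Foxd3 is a forkhead factor that maintains the neural crest progenitor state. Gfap, an intermediate filament protein, and S100b, a small calcium-binding protein, are the classical stains for these cells, and Gfap rises in glia that react to injury in the brain and in the gut. Cdh19 is a type II cadherin of the Schwann cell and glial lineage, and Gfra3 is the co-receptor through which the growth factor artemin signals to the receptor tyrosine kinase Ret.

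Of the 6 genes, 3 had a promoter in the RefSeq table used here (build GRCm38.p6), and these windows of 250 bases before to 50 bases after the annotated start are shown as the start regions of a crest factor and of the pair of proteins used to stain enteric glia. Capitals mark every CG dinucleotide and, in Gfap, one match to the STAT-type motif. Each is written 5′ to 3′ on the strand of its gene, with Foxd3 at chr4:99656049-99656348 (plus strand), S100b at chr10:76253586-76253885 (plus strand) and Gfap at chr11:102897151-102897450 (minus strand).
Foxd3: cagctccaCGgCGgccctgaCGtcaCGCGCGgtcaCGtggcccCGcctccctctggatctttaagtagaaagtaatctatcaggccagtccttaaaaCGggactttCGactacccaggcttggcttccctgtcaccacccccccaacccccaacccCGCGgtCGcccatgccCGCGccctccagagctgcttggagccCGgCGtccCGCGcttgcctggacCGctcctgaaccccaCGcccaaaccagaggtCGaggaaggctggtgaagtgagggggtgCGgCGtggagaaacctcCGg
S100b: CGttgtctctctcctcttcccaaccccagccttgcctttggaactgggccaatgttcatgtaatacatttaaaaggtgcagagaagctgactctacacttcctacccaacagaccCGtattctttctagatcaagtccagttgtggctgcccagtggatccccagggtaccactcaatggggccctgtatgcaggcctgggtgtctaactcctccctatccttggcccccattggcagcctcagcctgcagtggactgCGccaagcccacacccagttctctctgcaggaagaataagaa
Gfap: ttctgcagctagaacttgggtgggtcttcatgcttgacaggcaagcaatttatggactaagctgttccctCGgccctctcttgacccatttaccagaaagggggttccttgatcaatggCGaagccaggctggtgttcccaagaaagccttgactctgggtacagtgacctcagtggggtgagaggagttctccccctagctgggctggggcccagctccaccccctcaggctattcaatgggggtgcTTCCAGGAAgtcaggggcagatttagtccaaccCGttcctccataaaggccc
The Foxd3 window held 25 CG dinucleotides and 65.7% G and C, the S100b window 3 and 53.7%, and the Gfap window 3 and 55.7%, against a median of 7 CG dinucleotides over the 32851 promoters of the table. Both strands were searched for a STAT-type motif (TTCNNNGAA), a SOX-type motif (ACAAAG) and a TATA motif (TATAAA). The only match was TTCCAGGAA in the Gfap window, which starts 2 bases before the annotated start. Windows with the STAT-type motif made up 8.30% of all promoters, those with the SOX-type motif 18.7% and those with the TATA motif 13.6%. A match in letters is not evidence of binding.

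Library totals ran from 20121600 to 27633715 counts, and levels are in CPM, counts scaled to 1e+06 per library after TMM scaling (trimmed mean of M-values, factors 0.805 to 1.30), which allows for a few very abundant transcripts taking up a library. Sex transcripts split the libraries unevenly. The 3 D60 wild-type libraries were of male type and the 3 D60 transgenic libraries of female type, so at D60 genotype and sex cannot be told apart. The D80 wild-type libraries were all of female type, so age and sex cannot be told apart in wild-type mice either, and of the D80 transgenic libraries replicate 1 was of male type. Duodenal enterocyte genes summed to 9586 CPM in D80 wild-type replicate 3, beside 272 and 1986 in replicates 1 and 2, and pancreatic acinar genes summed to 4006 CPM in D80 transgenic replicate 1, beside 819 and 953 in replicates 3 and 2. Melanocytes also depend on Sox10, and Tyr was at 0 counts in every library while Tyrp1 and Mlana reached at most 2 and 4 counts. Other melanocyte genes were present, with Pmel at 84 to 244 counts, Mitf at 26 to 173 and Dct at 3 to 62 counts per library, and none of these 3 passed at D80. The whole list of 6 melanocyte genes summed to 6.98 to 10.6 CPM in D60 wild-type, 7.76 to 15.3 in D80 wild-type, 8.21 to 8.79 in D60 transgenic and 11.6 to 13.2 in D80 transgenic libraries.

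All 6 glia genes were low but present in each library, from 10 counts of Foxd3 in D60 wild-type replicate 1 to 314 counts of S100b in D80 wild-type replicate 1. Levels were put on a per-length scale with the exon lengths of GENCODE M21. In D60 wild-type pylorus S100b was the highest, at 6.44 ± 2.80 CPM per kilobase (SD, n = 3), followed by Sox10 at 1.51 ± 0.221, Gfap at 1.28 ± 0.277, Foxd3 at 0.701 ± 0.407, Gfra3 at 0.641 ± 0.0866 and Cdh19 at 0.500 ± 0.146. S100b stood clear of the next gene, and below it each neighbouring pair in this order lay within the SDs of the pair. In D80 transgenic pylorus S100b still led, at 4.60 ± 0.957 CPM per kilobase. Gfap (0.839 ± 0.633), Sox10 (0.649 ± 0.0449) and Gfra3 (0.641 ± 0.0377) lay within their SDs of each other. Cdh19 (0.285 ± 0.0925) and Foxd3 (0.250 ± 0.0684) were below them, and the gap between Gfra3 and Cdh19 exceeded their SDs.

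Sox10 (chromosome 15, 79154908 to 79165240, minus strand, GRCm38) was the one glia gene of the 6 whose fall in D80 transgenic mice passed the test. It was at 3.89, 5.23 and 4.71 CPM in D60 wild-type replicates 1 to 3, at 5.20, 2.69 and 4.59 in D80 wild-type, at 3.21, 6.04 and 4.47 in D60 transgenic and at 1.83, 2.10 and 2.01 in D80 transgenic libraries. All 3 D80 transgenic values lay below all 9 others after TMM scaling. By counts over library totals alone they did not. D80 wild-type replicate 2 (61 of 24461130) then lay below D80 transgenic replicates 2 (57 of 22039466) and 3 (65 of 24833454). At D80 Sox10 fell from 4.16 ± 1.31 to 1.98 ± 0.137 CPM, a log2 fold change of -1.04 (SE 0.29, edgeR quasi-likelihood test with Benjamini-Hochberg adjustment over all genes, adjusted p = 0.013). Within transgenic mice it fell by 1.17 on the log2 scale between D60 and D80 (SE 0.29, edgeR adjusted p = 0.0089). At D60 the genotypes differed by -0.01 (95% interval -0.66 to 0.64, edgeR adjusted p = 0.99). The D80 call ended without composition factors (log2 fold change -0.64, edgeR adjusted p = 0.14), without D80 transgenic replicate 3 (-1.01, edgeR adjusted p = 0.051) and without both D80 wild-type replicate 3 and D80 transgenic replicate 1 (-0.92, edgeR adjusted p = 0.086). The fall within transgenic mice was called in 22 of 23 alternative fits, the exception being that without composition factors (-0.83, edgeR adjusted p = 0.066). In bulk tissue fewer glia, less Sox10 RNA per glial cell and a smaller glial share of the tissue's RNA cannot be told apart. The 8 neuroendocrine genes summed to 495 to 535 CPM in D80 wild-type and 24835 to 37224 CPM in D80 transgenic libraries. All 8 passed as higher, beside 19.4% of all genes. The part of that rise in the Sox10 values was not tested.

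Foxd3 (chromosome 4, 99656299 to 99658622, plus strand) was the scarcest of the 6 in counts, with 10 to 53 counts per library. It was at 0.617, 2.5 and 1.76 CPM in D60 wild-type, 1.42, 0.926 and 1.34 in D80 wild-type, 0.691, 1.21 and 1.28 in D60 transgenic and 0.421, 0.737 and 0.589 in D80 transgenic libraries. The D80 groups did not overlap after TMM scaling, though they did by counts over library totals. D60 wild-type replicate 1 and D60 transgenic replicate 1 reached down into the D80 transgenic range. The D80 log2 fold change of -0.99 (95% interval -1.99 to 0.01) did not pass (edgeR adjusted p = 0.086), and it passed in 1 of 23 alternative fits, without D60 wild-type replicate 1 (edgeR adjusted p = 0.041). In the main fit its unadjusted edgeR p was 0.041, so the interval, which reaches past 0, is wider than the test implies. At D60 the difference was -0.60 (SE 0.43, edgeR adjusted p = 0.60).

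The adhesion molecule Cdh19 (chromosome 1, 110888326 to 110977584, minus strand) was at 1.61, 2.83 and 2.0 CPM in D60 wild-type, 3.78, 1.90 and 2.08 in D80 wild-type, 1.10, 2.71 and 1.87 in D60 transgenic and 1.02, 0.959 and 1.67 in D80 transgenic libraries. D80 wild-type replicate 1 was the highest of all 12. The 3 D80 transgenic values lay below the 3 D80 wild-type values after TMM scaling, but not by counts over library totals. Its D80 log2 fold change was -1.04 (95% interval -1.94 to -0.13, edgeR adjusted p = 0.052), as large as that of Sox10 but just outside the threshold of 0.05. With DESeq2 the adjusted p of Cdh19 was 0.035. It also passed when D80 wild-type replicate 2 (edgeR adjusted p = 0.049) or D60 transgenic replicate 1 (edgeR adjusted p = 0.037) was left out. Without D80 wild-type replicate 1 the change was -0.67 (edgeR adjusted p = 0.19).

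S100b (chromosome 10, 76253853 to 76261159, plus strand) was at 5.0, 13.1 and 10.5 CPM in D60 wild-type, 12.8, 4.81 and 5.98 in D80 wild-type, 6.71, 8.46 and 7.62 in D60 transgenic and 5.86, 6.16 and 8.46 in D80 transgenic libraries. The wild-type libraries were spread more widely (SD 4.16 and 4.29) than the transgenic ones (SD 0.875 and 1.42), and the groups overlapped in every comparison. The D80 log2 fold change was -0.20 with a 95% interval of -1.08 to 0.68 (edgeR adjusted p = 0.70), and it was 0.18 without composition factors and 0.33 without D80 wild-type replicate 1. Exons of S100b overlap the gene Dip2a on the opposite strand. The library kit was stranded, but the strand setting of the counting is not given in the sources used here, so part of the S100b counts could belong to Dip2a.

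Gfap (chromosome 11, 102887336 to 102900912, minus strand) was at 4.07, 6.27 and 5.90 CPM in D60 wild-type, 4.84, 4.90 and 6.98 in D80 wild-type, 2.72, 8.42 and 4.94 in D60 transgenic and 0.451, 5.01 and 5.14 in D80 transgenic libraries. A single library stood apart. D80 transgenic replicate 1 held 15 Gfap counts, against 136 and 166 in replicates 2 and 3 of its group, which were level with D80 wild-type replicates 1 and 2. The D80 log2 fold change was -0.65 (95% interval -2.09 to 0.80, edgeR adjusted p = 0.43), and -0.13 (SE 0.39, edgeR adjusted p = 0.81) without that library. The same library was the one of male type in its group and the one with the most pancreatic acinar transcripts. It held the lowest level of its group for 9 of 11 enteric neuron genes, 5 of 18 other glial genes and 2 of 12 smooth muscle genes. Of all tested genes, 38.1% were lowest in that library. The part of these traits in its low Gfap was not tested. Gfap exons lie within the span of Gm26668, a long non-coding RNA on the opposite strand.

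Gfra3 (chromosome 18, 34689898 to 34720387, minus strand) was at 1.17, 1.18 and 1.48 CPM in D60 wild-type, 1.79, 1.94 and 1.43 in D80 wild-type, 0.895, 1.33 and 2.0 in D60 transgenic and 1.26, 1.22 and 1.36 in D80 transgenic libraries. The 3 D80 transgenic values were close together and, after TMM scaling, just below the lowest D80 wild-type value. By counts over library totals the D80 groups overlapped. The D80 log2 fold change of -0.40 (95% interval -1.08 to 0.27) did not pass (edgeR adjusted p = 0.29), and without composition factors it was -0.01.

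**Figure D1:**
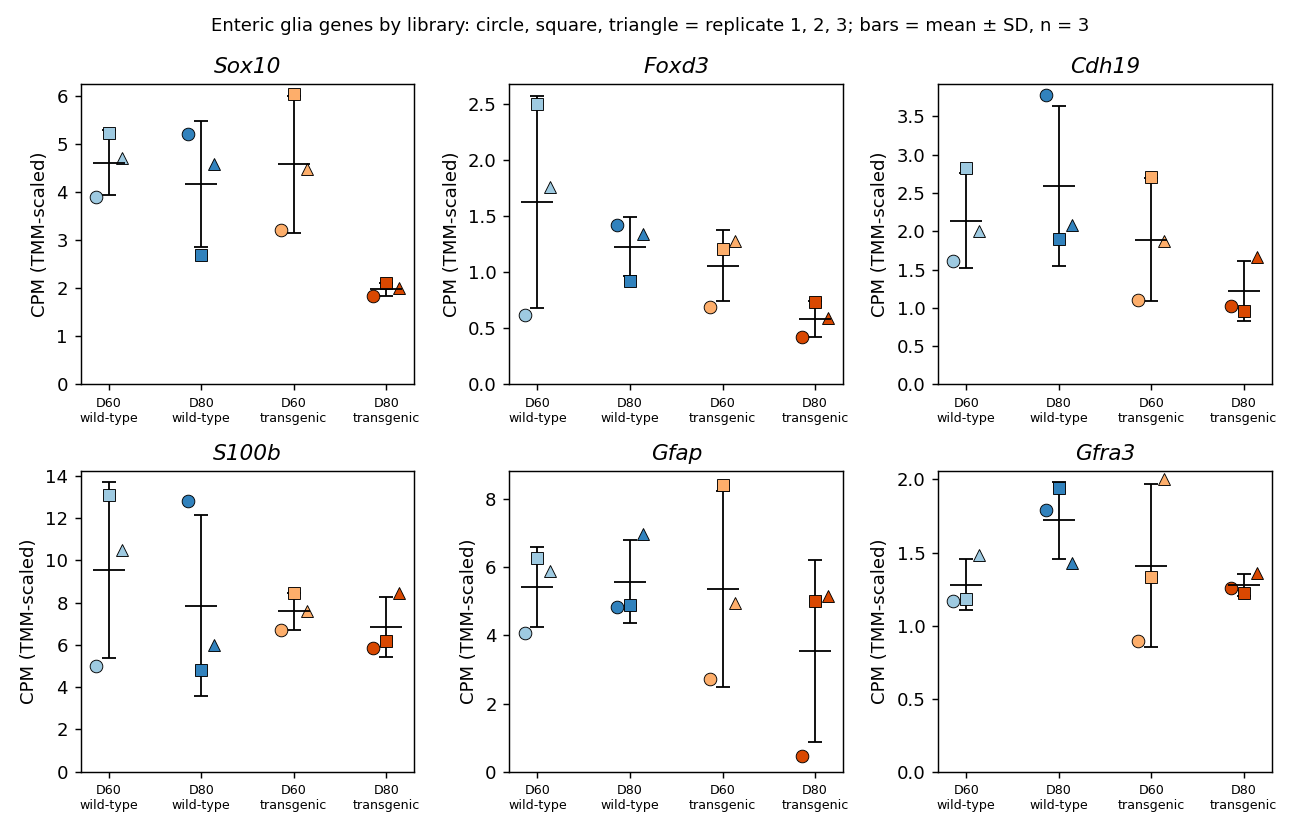
Level of each enteric glia gene in the 12 libraries, in CPM on a linear axis from 0, with the mean and SD of each group of 3. After TMM scaling, Sox10 in the 3 D80 transgenic libraries sits at 1.83 to 2.10 CPM, below every other library. Gfap shows 1 library at 0.451 CPM beside 2 at 5.01 and 5.14.

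Of the 6 genes, 1 passed in the genotype comparison at D80, where 41.3% of all tested genes passed, 22.0% as lower and 19.4% as higher. A count of 1 of 6 is near that background. All 6 log2 fold changes were negative by TMM (S100b was at 0.18 without composition factors), with a median of -0.82 beside -0.07 over all tested genes, of which 55.1% were negative. In 4 of the 6 (Sox10, Foxd3, Cdh19 and Gfra3) the TMM-scaled D80 transgenic values all lay below the D80 wild-type values. That held for 26.1% of all tested genes, and the reverse for 24.4%. By counts over library totals, without TMM factors, the D80 groups overlapped for all 4. The split of all D80 calls depended on scaling, with 2974 higher and 3380 lower by TMM, 3571 and 2093 by upper-quartile factors, and 5104 and 1001 without composition factors. Dropping the factors moved the median of all genes from -0.07 to 0.34, and relative to that median Sox10 was at -0.97 with TMM and -0.98 without.

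At D60 none of the 6 glia genes passed between genotypes, in a comparison where 3.90% of all genes passed (3.66% as higher and 0.241% as lower), and the median log2 fold change was -0.10. The groups overlapped for all 6, while 12.2% of all tested genes had transgenic values wholly above and 7.84% wholly below. In the same comparison 8 of 8 neuroendocrine genes rose, with a median of 2.83. Between D60 and D80 in wild-type mice none of the 6 passed, and neither did any other gene (0% of those tested, with 1925 genes at an unadjusted p under 0.05 by edgeR and 254 called by DESeq2). The median log2 fold change of the 6 was -0.05 and all 6 overlapped between ages, beside 7.06% of all genes wholly higher and 4.55% wholly lower at D80. Between D60 and D80 in transgenic mice Sox10 alone passed, against 35.7% of all genes, 17.7% as higher and 18% as lower. Its groups were the only ones of the 6 that did not overlap, lower at D80, as held for 28.0% of all tested genes, with 30.6% wholly higher. The difference of the genotype effect between D80 and D60 (the interaction) passed for none of the 6, against 5% of all genes (2.77% above and 2.23% below 0). For Sox10 it was -1.03 (SE 0.40, edgeR adjusted p = 0.15), so a larger genotype effect at D80 than at D60 was not shown for this gene. The comparisons share groups and are not independent of each other.

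**Figure D2:**
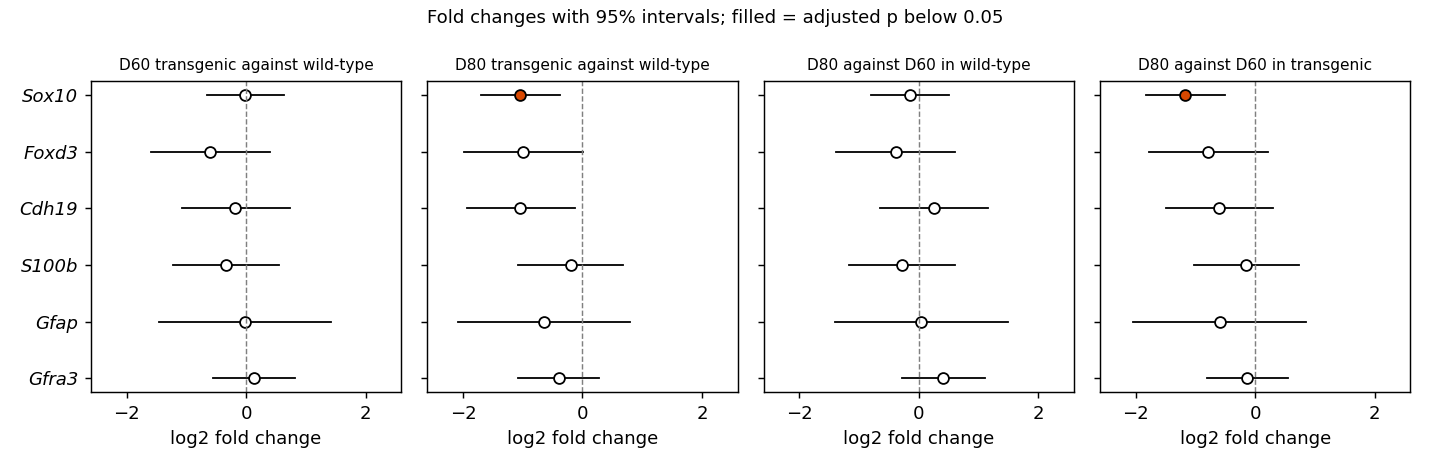
Log2 fold changes of the 6 genes with 95% intervals in 4 comparisons, filled where the adjusted p was below 0.05. Sox10 is the only filled point, at -1.04 between genotypes at D80 and at -1.17 between ages in transgenic mice.

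Counts relative to Sox10 within a library do not depend on scaling. There were 1.29, 2.51 and 2.23 S100b counts per Sox10 count in D60 wild-type, 2.45, 1.79 and 1.30 in D80 wild-type, 2.09, 1.40 and 1.70 in D60 transgenic and 3.2, 2.93 and 4.20 in D80 transgenic libraries. The 3 D80 transgenic ratios exceeded all 9 others, and the ratio was above 2.51 in that group alone. Sox10, the denominator, was the gene that fell there, so any gene that fell less has a raised ratio by construction. The ratios are therefore not a result separate from the fall of Sox10. On the log2 scale the D80 groups differed by 0.93 (two-sided exact permutation test, n = 3 per group, p = 0.10, the smallest this design allows). Adjusted over the 5 ratios to Sox10 the permutation p was 0.50. For Cdh19 and Foxd3 the mean log2 ratios to Sox10 differed at D80 by -0.04 and -0.08. The SDs in D80 transgenic and wild-type libraries were 0.44 and 0.38 for Cdh19 and 0.31 and 0.17 for Foxd3. With n = 3 per group an unchanged ratio is not established. Gfra3 was at 0.579 to 0.689 per Sox10 count in D80 transgenic and 0.311 to 0.721 in D80 wild-type libraries, which overlapped (log2 difference 0.60). Gfap was at 0.246, 2.39 and 2.55 per Sox10 count in D80 transgenic libraries and at 0.848 to 1.82 in the 9 others, so replicate 1 lay below and replicates 2 and 3 above all 9.

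**Figure D3:**
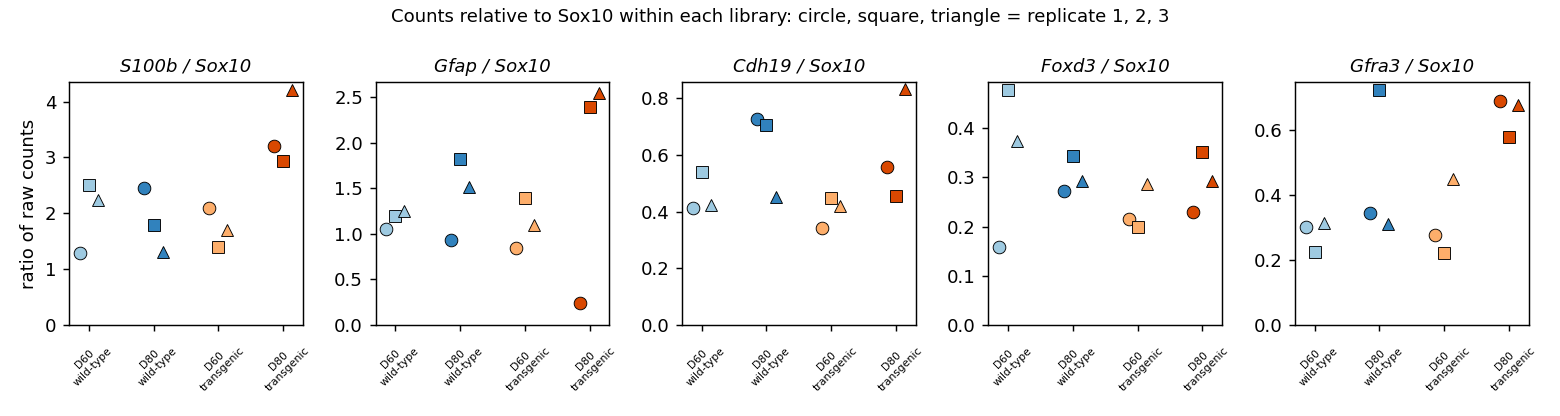
Raw counts of the 5 other genes divided by those of Sox10 in each library. Sox10 itself was lower in the D80 transgenic libraries, which raises the ratio of any gene that fell less. The S100b ratio is at 2.93 to 4.20 in D80 transgenic libraries and at most 2.51 elsewhere, and the Gfap ratios of the D80 transgenic libraries are both the lowest (0.246 in replicate 1) and the highest (2.39 and 2.55) of the 12.

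Within groups, 4 of the glia genes (Sox10, Foxd3, Cdh19 and S100b) varied together from library to library more closely than Gfap or Gfra3 did with them. All 6 were lowest in replicate 1 of the D60 wild-type group and in replicate 1 of the D60 transgenic group, where 40.8% and 43% of all tested genes were lowest. In D80 wild-type mice 4 of the 6 were lowest in replicate 2, as were 30.5% of all tested genes. Smooth muscle genes were lowest in the same libraries, 10 of 12 in D60 wild-type replicate 1, 12 of 12 in D60 transgenic replicate 1 and 11 of 12 in D80 wild-type replicate 2. Enteric neuron genes were lowest there in 1, 6 and 1 of 11 cases, and the 18 other glial genes in 6, 14 and 9. In D60 wild-type replicate 1, 7 of those 18 were the highest of their group. Of 8 neuroendocrine genes, 2, 7 and 1 were lowest in these libraries. In the D80 transgenic group replicate 1 was lowest for 4 of the 6 glia genes, beside 38.1% of all tested genes. That library was highest for 10 of 12 smooth muscle genes, beside 5271 of all 15369 tested genes. Over deviations from group means in the 12 libraries, the pairwise Pearson correlations among Sox10, Foxd3, Cdh19 and S100b were 0.61 to 0.80, those of Gfap with these 4 genes 0.28 to 0.51, and those of Gfra3 with the other 5 genes 0.16 to 0.38. These are descriptions, and the 12 libraries share tissue make-up and scaling.

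**Figure D4:**
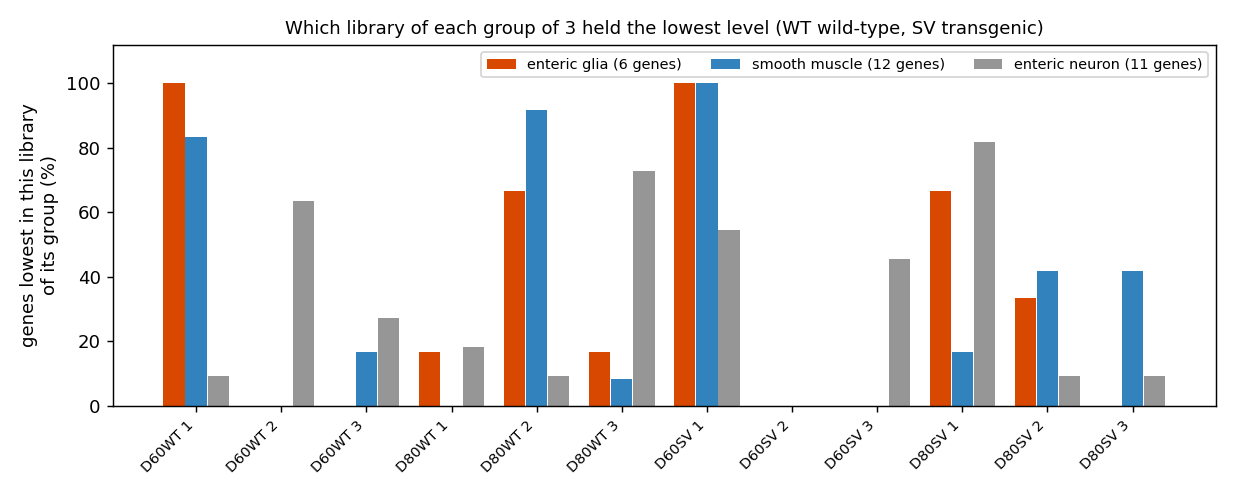
Percentage of the genes of each list whose lowest level within a group of 3 fell in the library named on the axis, as bars from 0. All 6 enteric glia genes and most or all smooth muscle genes were lowest in D60 wild-type replicate 1 and D60 transgenic replicate 1.

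The plexus glia lie within smooth muscle. All 12 smooth muscle genes fell at D80 under each of 4 scalings, beside 22.0% of all genes by TMM. Their median log2 fold change was -2.38. Their summed level was 11099 to 18046 CPM in D80 wild-type and 2701 to 2847 CPM in D80 transgenic libraries. At D60 that median was -0.72 and 1 gene fell, the calcium-storage protein Casq2. The part of the muscle layer's share of the tissue in the glial values was not tested. Enteric neuron genes moved apart at D80, with 5 higher and 4 lower of 11, beside 19.4% and 22.0% of all genes. The genes that rose included Snap25 (4.19) and Uchl1 (2.66), neuronal genes that neuroendocrine cells also use. Those that fell included Nos1 (-2.09), which makes nitric oxide in inhibitory motor neurons. The choline transporter Slc5a7 (-1.88) and the neuronal filament gene Prph (-1.40) fell too.

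Among 18 further genes of enteric glia, 11 fell and 1 rose at D80, beside 22.0% and 19.4% of all genes, with a median of -0.88. The potassium channel Kcna1 had the largest fall. It was at 11.7, 7.54 and 10.1 CPM in D80 wild-type and 0.961, 1.11 and 0.837 in D80 transgenic libraries (log2 fold change -3.24, SE 0.36, edgeR adjusted p = 4.8e-05), and at 5.33 to 14.6 in the 6 D60 libraries. Gpr37l1, an orphan receptor of astrocytes and enteric glia, fell from 5.06 ± 0.937 to 1.73 ± 0.651 CPM (log2 fold change -1.50, edgeR adjusted p = 0.0023). Glul, the glutamine synthetase of glia, fell by 0.98 (edgeR adjusted p = 0.0021) from 571 ± 74.2 CPM, a level shared with many other cell types. The neuregulin receptor Erbb3, which acts in Schwann cell and glial development and is also found in gut epithelium, fell from 172 ± 76.2 to 91.4 ± 22.1 CPM (edgeR adjusted p = 0.026), although D80 wild-type replicate 1 at 96.9 CPM lay below D80 transgenic replicate 1 at 115.

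The gene that rose was Sox2. Its D80 level was 10.6 ± 3.28 CPM without and 52.4 ± 3.82 CPM with the transgene (log2 fold change 2.30, edgeR adjusted p = 4.6e-06). It rose at D60 too (log2 fold change 1.20, edgeR adjusted p = 0.0023). Sox2 is made by gastric epithelium and neuroendocrine cells as well as by glia. The low-affinity neurotrophin receptor Ngfr was at 2.97, 5.25 and 2.12 CPM in D80 wild-type and 4.57, 9.37 and 6.45 in D80 transgenic libraries, and its difference of 0.96 did not pass (edgeR adjusted p = 0.11). The count of 11 was 7 without D80 transgenic replicate 2 or 3, 7 without both D80 wild-type replicate 3 and D80 transgenic replicate 1, and 6 without composition factors, all 6 of them among the 11. Without composition factors 1001 of all 15369 tested genes were lower. At D60 none of these 18 fell, with a median of -0.18.

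**Figure D5:**
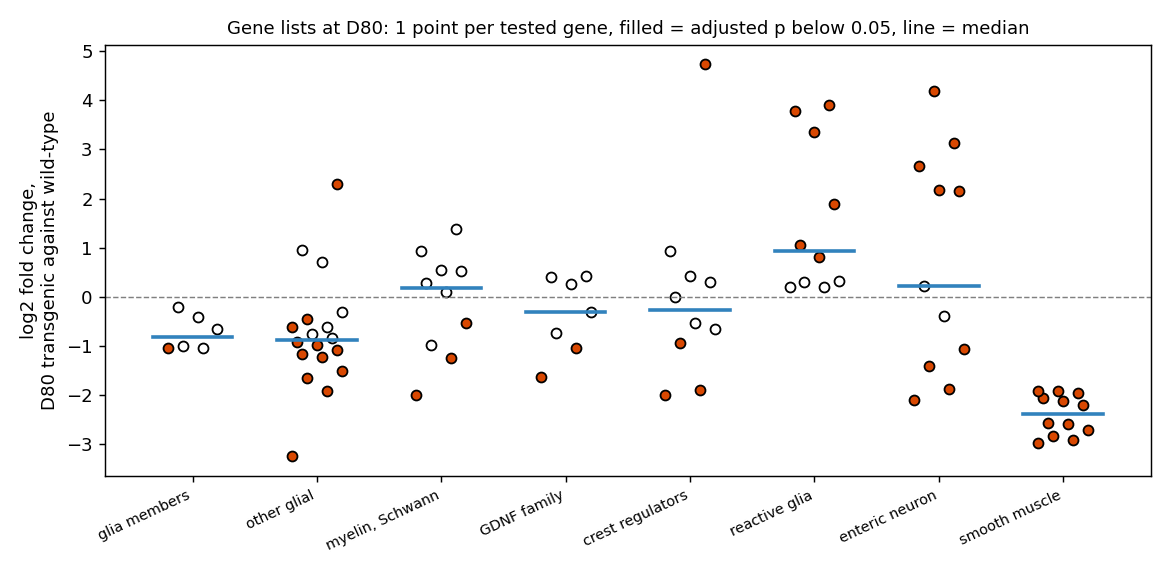
Log2 fold change of each tested gene between genotypes at D80, by list, filled where the adjusted p was below 0.05, with the median as a line. The medians are -0.82 for the 6 enteric glia genes, -0.88 for 18 other glial genes and -2.38 for 12 smooth muscle genes.

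Genes of the myelin sheath and Schwann cells did not share one direction. Of 10 tested, 3 fell at D80 and none rose, beside 22.0% and 19.4% of all genes, with a median of 0.19. Without composition factors 2 fell and 3 rose, beside 1001 lower and 5104 higher of all 15369 tested genes. Myelin basic protein, Mbp, fell by 0.53 (edgeR adjusted p = 0.0058), Ncmap by 1.25 (edgeR adjusted p = 7.1e-04) and Mal, which stomach epithelium also makes, by 2.0 (edgeR adjusted p = 0.0019).

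Gfra3 is one of 4 GDNF family co-receptors, and among the ligands and receptors of the family 2 of 7 tested genes fell at D80, near the 22.0% of all genes that did. They were the ligand Gdnf and the neurturin co-receptor Gfra2. Gdnf, which muscle makes to guide the enteric nervous system, was at 6.62, 4.15 and 7.37 CPM in D80 wild-type and 2.28, 1.36 and 2.05 in D80 transgenic libraries (log2 fold change -1.63, SE 0.40, edgeR adjusted p = 0.0070). Gfra2 fell from 9.66 ± 1.29 to 4.67 ± 0.385 CPM (log2 fold change -1.04, edgeR adjusted p = 0.0028). The partners of Gfra3 did not pass. Artemin, Artn, was at 1.78 ± 0.296 and 2.41 ± 0.436 CPM and Ret at 11.1 ± 1.44 and 13.3 ± 2.85 CPM in D80 wild-type and transgenic libraries. None of the 7 passed at D60. The D80 median of the 7 was -0.31, and 0.09 without composition factors, where 1 rose and 1 fell. Of all 15369 tested genes 5104 rose and 1001 fell under that scaling.

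Of 10 tested regulators of the neural crest and its glia, 3 fell and 1 rose at D80, near the shares of all genes (22.0% and 19.4%), with a median of -0.26 that was 0.16 without composition factors. Edn3, the endothelin that keeps crest cells in a progenitor state, fell by 1.99 (edgeR adjusted p = 0.0047) and the neuregulin co-receptor Erbb2 by 0.94 (edgeR adjusted p = 0.0024). In D80 wild-type replicates 1 to 3 Edn3 was at 5.40, 15.5 and 21.8 CPM, against 4.21, 3.83 and 2.51 in D80 transgenic ones. The summed duodenal enterocyte genes had the same order in D80 wild-type (272, 1986 and 9586 CPM). The part of neighbouring tissue in the Edn3 values was not tested. The SoxE relatives of Sox10 did not pass at D80, with Sox8 at -0.53 (SE 0.47) and Sox9, which epithelium also makes, at -0.66 (SE 0.37). Endothelin receptor B, Ednrb, was at 10.1 ± 2.69 CPM in D80 wild-type and 10.1 ± 0.868 in D80 transgenic libraries.

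Genes known from reactive astrocytes and glia rose in 6 of 10 cases at D80 and fell in none, with a median of 0.93. Of all tested genes 19.4% rose and 22.0% fell. Serpina3n, a protease inhibitor, rose by 3.90 (edgeR adjusted p = 9.1e-04), the chemokines Ccl2 by 3.35 and Cxcl10 by 1.88 (both edgeR adjusted p = 0.0012), and lipocalin 2, Lcn2, by 3.77 (edgeR adjusted p = 0.0028). Epithelial, stromal and immune cells also make these transcripts, and Gfap, the defining filament of reactive glia, was at -0.65 and did not pass. The transcription factor Stat3, whose class of motif stands in the Gfap window above, was at 161 ± 28.0 and 186 ± 15.5 CPM (edgeR adjusted p = 0.24).

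Relatives of the glia genes by family went their own ways at D80, where 22.0% of all tested genes fell and 19.4% rose. Of 13 tested S100 genes besides S100b, 9 fell, and S100a4, S100a8 and S100a9 rose, the last of these by 6.99 (edgeR adjusted p = 4.5e-04). Without composition factors 7 of the 13 fell, beside 1001 of all 15369 tested genes. S100a8 and S100a9 are proteins of neutrophils. Of 8 tested type II cadherins besides Cdh19, 6 rose and none fell, led by Cdh22 at 6.75 (edgeR adjusted p = 8.1e-07). The filament protein Prph, a type III relative of Gfap in peripheral neurons, fell by 1.40 (edgeR adjusted p = 0.0069), and vimentin, Vim, was at 0.20 (SE 0.28).

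The genes whose log2 CPM most resembled each member over the 12 libraries were ranked by Pearson correlation among 13955 genes with a mean of at least 1 CPM. Sox10 was most like Fam124a, Smarcd3, Plekhb1 and the crest factor Hand2 (all r = 0.97) and Six2 (r = 0.96), with correlations of 0.88 to 0.93 for deviations within groups. Gfap was most like the growth factor Ptn (r = 0.86), Dnajc8 (r = 0.86) and the GDNF co-receptor Gfra1 (r = 0.85). Gfra1 was at 3.39 CPM in D80 transgenic replicate 1, the library low in Gfap, and at 6.86 and 8.27 in replicates 2 and 3. S100b was most like Cbx7 (r = 0.93) and the unnamed transcript 0610007N19Rik (r = 0.94), Foxd3 like Spop (r = 0.96) and Cdh19 like Rsu1 (r = 0.96). The best match of Gfra3, Lyve1, reached r = 0.78. The mean of the 6 standardised profiles was closest to Nrbp2 (r = 0.95).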

How the data were processed

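RNA-seq counts of 12 pylorus libraries were used. The libraries were of stranded mRNA, per the labels' protocols. The authors deposited raw counts by gene symbol, not normalized. The build mm10 and the tools HTSeq 0.9.1, STAR 2.5.3a and edgeR 3.16.5 are listed, per the submitters' processing notes. Which annotation and strand setting served the counting is not given in the sources used here. A normalized table of the same libraries was not used.

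The main test used edgeR 4.0.16 under R 4.3.3; DESeq2 1.42.0 and limma 3.58.1 served as alternatives. filterByExpr kept 15369 genes with 99.975% of the counts, library sizes were scaled by TMM, and all 12 libraries entered a single quasi-likelihood fit by group (8 residual degrees of freedom). Benjamini-Hochberg adjustment ran over every tested gene at a threshold of 0.05 with no minimum fold. Intervals of log2 fold changes are the estimate and SE with a t quantile at the 8 residual degrees of freedom. The quasi-likelihood test uses more degrees of freedom, so these intervals are wider than the p-values imply. The pipeline was tested on simulated data. Positions and exon lengths are from GENCODE M21 (GRCm38), promoters from RefSeq (GRCm38.p6).

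The glia genes and all lists were chosen with earlier results of these data known. The text names the 6 genes, up to 4 members of each other list with the smallest p at D80, members counted as called where that count is 5 or fewer, and the nearest profiles. Others named (Erbb3, Ngfr, Artn, Ret, Sox8, Sox9, Ednrb and Stat3) were picked for their role after values were seen. Cmtm5 was named because it passed the interaction test. Some list members that the rule takes are counted but not reported here by name. Alternatives were other scaling factors, filters and tools, a replicate block, sex as a covariate, only the groups compared, and leaving out libraries.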

Additional observations from a re-analysis of the deposited data

Results flagged for a closer look

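The search covered the 6 enteric glia genes and the lists of other glial, myelin and Schwann cell, GDNF family, crest regulator and reactive glia genes. In these, 4 genes had a genotype effect that differed between D80 and D60 by the interaction test of edgeR over all genes. On the log2 scale the difference was -3.05 for Kcna1 (SE 0.48, edgeR adjusted p = 0.0089), -1.98 for Cmtm5 (SE 0.46, edgeR adjusted p = 0.033), -2.43 for Edn3 (SE 0.62, edgeR adjusted p = 0.047) and 1.10 for Sox2 (SE 0.26, edgeR adjusted p = 0.035). Cmtm5, a membrane protein gene of the glial list, was at 1.18, 0.574 and 1.08 CPM in D80 wild-type and 0.330, 0.221 and 0.186 in D80 transgenic libraries. These values rest on only 29, 13 and 25 counts in D80 wild-type and 11, 6 and 6 in D80 transgenic libraries. The gene did not pass the stricter filter on low counts. Edn3 ran from 5.40 to 21.8 CPM over the D80 wild-type libraries, in the order of their duodenal enterocyte genes. These differences rest on D60 groups in which genotype and sex cannot be told apart. With sex as a covariate none of the 4 passed, with values of -3.04 for Kcna1, -2.72 for Cmtm5, -2.98 for Edn3 and 1.30 for Sox2 and edgeR adjusted p of 0.14 to 0.23, and over all genes the calls fell from 768 to 99. Over the alternatives, which were chosen after seeing the data, Kcna1 passed in 21 of 22, Sox2 in 11 of 22, Cmtm5 in 8 of 21 and Edn3 in 4 of 22. The adjusted p ranged from 2e-07 to 0.15 for Kcna1, from 9.2e-04 to 0.19 for Sox2, from 0.013 to 0.14 for Cmtm5 and from 0.0029 to 0.23 for Edn3 (edgeR, DESeq2 or limma). None of the 6 glia genes was among those whose effect differed between ages. Outside the lists searched, 9 of 12 smooth muscle genes passed the same test below 0. Above 0 passed 4 of 11 enteric neuron and 8 of 8 neuroendocrine genes, where 5% of all genes passed in either direction. Casq2 (-1.50, edgeR adjusted p = 0.019), Snap25 (2.47, edgeR adjusted p = 0.0092) and Uchl1 (1.73, edgeR adjusted p = 0.019) were among them.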

How the results depend on the processing

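Without composition factors the number of the 6 glia genes past the threshold was 0 in the D80 genotype comparison and 0 in the transgenic age comparison, against 1 each by TMM. The number of other glial genes lower at D80 was then 6, beside 1001 of all 15369 tested genes. Signs also turned there for S100b at D80 (0.18), for Gfap and Sox10 at D60 (0.10 each), and for S100b (0.21) and Gfra3 (0.22) between ages in transgenic mice. With upper-quartile factors Gfap and Sox10 at D60 were each at 0.03. DESeq2 called 2 of the 6 at D80. Without both D80 wild-type replicate 3 and D80 transgenic replicate 1, 0 of the 6 and 7 other glial genes were called lower at D80, and Gfap turned to 0.06 at D80, to -0.15 between ages in wild-type mice and to 0.07 in the interaction. With sex as a covariate, which rests on the D80 transgenic group alone for its contrast within a group, Gfap was at -3.30 between genotypes at D60 (SE 0.72, edgeR adjusted p = 0.11, against -0.02 without it). Gfap was at -3.24 and Cdh19 at -0.09 between ages in wild-type mice, and Gfap at 3.16 and Foxd3 at 0.34 in the interaction. For values not explained by the construction of the alternative, the cause was not tested.

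Leaving out 1 library at a time gave 0 to 2 of the 6 at D80 and 7 to 11 other glial genes lower. Log2 fold changes whose sign turned ranged at D60 from -0.51 to 0.29 for Gfap, -0.27 to 0.18 for Sox10, -0.52 to 0.09 for Cdh19 and -0.19 to 0.36 for Gfra3, and at D80 from -0.46 to 0.33 for S100b. Between ages in wild-type mice they ranged from -0.15 to 0.15 for Gfap, -0.82 to 0.01 for S100b, -0.34 to 0.08 for Sox10, -0.76 to 0.03 for Foxd3 and -0.11 to 0.50 for Cdh19. They ranged from -0.36 to 0.19 for Gfra3 between ages in transgenic mice, and in the interaction from -0.17 to 0.67 for S100b and -0.82 to 0.02 for Foxd3. None of these had passed the threshold.

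Counts over all genes moved by over 1.5 times at D60 with DESeq2 (992) and sex (85) and over left-out libraries (378 to 736), against 599. At D80 the genes called lower numbered 2038 with only the groups compared and 1888 to 3708 over left-out libraries, against 3380. Between ages in wild-type mice they were 254 with DESeq2, 1 with sex, 7 without both libraries, 5 with only those groups and 0 to 396 over left-out libraries, against 0. For the interaction they were 1745 with DESeq2, 423 with limma-voom, 99 with sex and 193 to 2419 over left-out libraries, against 768, and between ages in transgenic mice 3507 to 6594 over left-out libraries, against 5490.

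The labels do not state that replicate numbers pair the libraries. Of 18 same-numbered pairs, 6 had a correlation over 0.1 (range -0.34 to 0.39), and 3 of 12 libraries correlated best with their own number. A shared origin of same-numbered libraries was not tested. With the replicate block 5993 genes passed at D80, the same number of the 6 glia genes passed in each comparison, and Sox10 at D80 was at -1.06 (edgeR adjusted p = 0.023). Foxd3, with 10 to 53 counts per library, has the least depth of the 6.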
